A study of Mus musculus with 4 samples.

Results

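The 10 genes described here are markers of reactive astrocytes: Gfap, Vim, Serpina3n, Lcn2, Steap4, S1pr3, Timp1, Osmr, Cp and Aspg. They were chosen by name from the marker genes used in the field, with earlier results of these data known. All 10 were found among the 54532 genes listed in each library. RNA sequencing compared brain tissue of C57BL/6 mice in 4 groups of 1 library each. The old tumor-bearing and young tumor-bearing mice had received 50000 GL261 cells, a transplantable C57BL/6 mouse glioma line, in the brain, and their tissue was taken on day 21. The old naive and young naive mice carried no tumor and served as controls, and the labels name no other treatment. The tissue is labelled as lying outside the tumor. The labels give 8 to 12 weeks as the age of the young mice. For the old ones they give 8 to 90 weeks, a range that takes in the young ages, so "old" is used only as a label. How many mice a library was made from is not stated in the labels. Every comparison sets 1 library against 1 other, so the spread between mice is unknown and no test could be run.

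Astrocytes respond to injury, infection and tumors by a change of gene expression called reactive gliosis, in which they enlarge and raise the intermediate filament proteins of their cytoskeleton. Cytokines that signal through the gp130 receptor chain and the transcription factor STAT3 are a well-studied trigger. Reactive astrocytes also secrete protease inhibitors and iron-binding proteins. The 10 genes belong to the group often called pan-reactive, since it was described in astrocytes after both inflammatory and ischemic injury of the mouse brain. Most of the 10 are also made by other cells: vimentin, for example, is also made by endothelial, ependymal, myeloid and many tumor cells. In tissue RNA, more cells of a type and more RNA per cell cannot be told apart.

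RefSeq promoters were on hand for all 10 genes, 11 windows in all, each from 250 bases before to 50 bases after a transcription start (build GRCm38.p6, the assembly called mm10). They are shown because STAT factors and C/EBP factors are known regulators of reactive genes. The STAT motif TTCNNNGAA was present in the windows of 2 of the 10 genes, Gfap and Steap4, against 8.30% of 32851 promoter windows of all genes. The C/EBP motif TTGCNNAA was present in 3 of the 10, Cp, Lcn2 and Steap4, against 10.8% of all windows. A consensus of NF-kB (4.59% of all windows) and one of the interferon response element (3.44%) were present in none of the 10. Both strands were searched, and none of the matches printed here overlapped another. A match is a description of the letters only. The stretches before the start of Gfap (chr11:102897194-102897450, minus strand, ending 7 bases into the transcript to show the whole match), Steap4 (chr5:7960222-7960471, plus strand) and Lcn2 (chr2:32387740-32387989, minus strand) read as follows, 5′ to 3′ along the gene, with STAT and C/EBP matches in capitals.
Gfap: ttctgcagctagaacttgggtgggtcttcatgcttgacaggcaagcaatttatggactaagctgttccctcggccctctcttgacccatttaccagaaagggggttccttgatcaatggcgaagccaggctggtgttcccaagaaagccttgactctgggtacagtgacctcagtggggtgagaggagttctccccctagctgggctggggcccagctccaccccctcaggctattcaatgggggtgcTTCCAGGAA
Steap4: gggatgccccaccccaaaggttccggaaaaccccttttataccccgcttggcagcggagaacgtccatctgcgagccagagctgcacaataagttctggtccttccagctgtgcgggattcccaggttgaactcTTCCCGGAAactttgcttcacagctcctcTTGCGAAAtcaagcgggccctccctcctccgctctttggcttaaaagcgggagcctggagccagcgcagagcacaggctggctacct
Lcn2: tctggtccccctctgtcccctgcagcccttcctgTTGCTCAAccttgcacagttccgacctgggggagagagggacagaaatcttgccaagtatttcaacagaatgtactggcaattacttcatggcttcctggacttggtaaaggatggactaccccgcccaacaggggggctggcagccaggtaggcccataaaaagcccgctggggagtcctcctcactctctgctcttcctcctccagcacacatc
Steap4 held both kinds, TTCCCGGAA from position -116 and TTGCGAAA from position -87 relative to the start. The STAT match of Gfap, TTCCAGGAA, lay across the start, from position -2.

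All 10 genes were higher in the tumor-bearing than in the naive library at either age, and every one of these 20 ratios had a counting interval above 1. Levels are given in FPKM, the fragments of a gene divided by its length in kilobases and by a measure of depth. The range in parentheses behind a fold is its exact 95% interval from the numbers of reads, without the spread between mice. A gene was counted as apart at 2-fold or more on the log2 scale of FPKM + 0.1, provided that it reached 1 FPKM in at least 1 of the libraries compared. In old tissue all 10 reached that floor and 9 were at least 2-fold higher, against 20.6% of 16488 genes (19.3% of protein-coding genes). In young tissue 9 reached it and 7 were at least 2-fold higher, against 5.05% of 15500 genes (2.32% of protein-coding genes). No member was lower by 2-fold in old tissue, where 31.4% of genes were (29.7% of protein-coding genes), or in young tissue, where 1.85% were (0.350%). Over all 10 members the median log2 ratio was 2.41 in old and 1.31 in young tissue, beside medians of -0.31 and -0.01 over all genes above the floor. Since the members were chosen with earlier results of these data known, these counts and medians are a description and not a test.

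The scale of the old comparison was not fixed. The authors' depth divisor was 1.19 times the recovered fragments in the old tumor-bearing library and 0.798 times in the old naive one. Under 4 other scalings of the same values the old ratios moved up by 0.35 to 0.58 (log2), and the young ones by 0.02 to 0.06. The share of 2-fold genes that were higher was 39.6% as deposited in the old comparison and 51.7% to 59.9% under the other scalings. All 10 members stayed higher in the tumor-bearing library, at both ages, under each of these scalings and with 1 or 0.01 FPKM added in place of 0.1. In the old comparison, reads in listed genes came to 19557451 fragments in the tumor-bearing and 19611830 in the naive library, and in the young one to 21887483 in the tumor-bearing and 23261886 in the naive library.

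Markers of other cells that can express these genes differed between the libraries too, and their part in the results on the members was not tested. Markers of monocytes and macrophages (7 genes) summed to 350.1 FPKM in old tumor-bearing and 21.8 FPKM in old naive tissue, and to 39.2 FPKM in young tumor-bearing and 12.4 FPKM in young naive tissue, where Ly6c2 was at 0. Those of dividing cells (5 genes) reached 117 FPKM in old tumor-bearing against 0.458 FPKM in old naive tissue, and 5.36 FPKM in young tumor-bearing against 0.732 FPKM in young naive tissue. Both lists were highest in the old tumor-bearing library, as was every member except Steap4. Choroid plexus markers (6 genes) summed to 457 FPKM in old tumor-bearing and 7.06 FPKM in old naive tissue, and to 396 FPKM in young tumor-bearing and 413 FPKM in young naive tissue. The old naive library thus stood apart in choroid plexus markers. Ependymal markers (5 genes) summed to 8.13 FPKM in old tumor-bearing and 5.55 FPKM in old naive tissue, and to 17.7 FPKM in young tumor-bearing and 12.4 FPKM in young naive tissue. Neuronal markers (5 genes) summed to 212 FPKM in old tumor-bearing and 884 FPKM in old naive tissue, and to 649 FPKM in young tumor-bearing and 749.8 FPKM in young naive tissue. They were present in all 4 libraries, as the label of brain tissue requires, and lowest in the old tumor-bearing one. Those of endothelium (6 genes) reached 40.2 FPKM in old tumor-bearing against 69.1 FPKM in old naive tissue, and 56.9 FPKM in young tumor-bearing against 65.1 FPKM in young naive tissue. Those of pericytes (5 genes) reached 25 FPKM in old tumor-bearing against 80.8 FPKM in old naive tissue, and 73.0 FPKM in young tumor-bearing against 77.7 FPKM in young naive tissue. Both vascular lists were lowest in the old tumor-bearing library. Those of microglia (6 genes) reached 101 FPKM in old tumor-bearing against 95.7 FPKM in old naive tissue, and 90.9 FPKM in young tumor-bearing against 76.2 FPKM in young naive tissue. Those of meningeal fibroblasts (6 genes) reached 14.1 FPKM in old tumor-bearing against 14.8 FPKM in old naive tissue, and 23.5 FPKM in young tumor-bearing against 18.8 FPKM in young naive tissue. Those of oligodendrocytes (5 genes) reached 526 FPKM in old tumor-bearing against 642 FPKM in old naive tissue, and 837 FPKM in young tumor-bearing against 886 FPKM in young naive tissue.

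**Figure D1:**
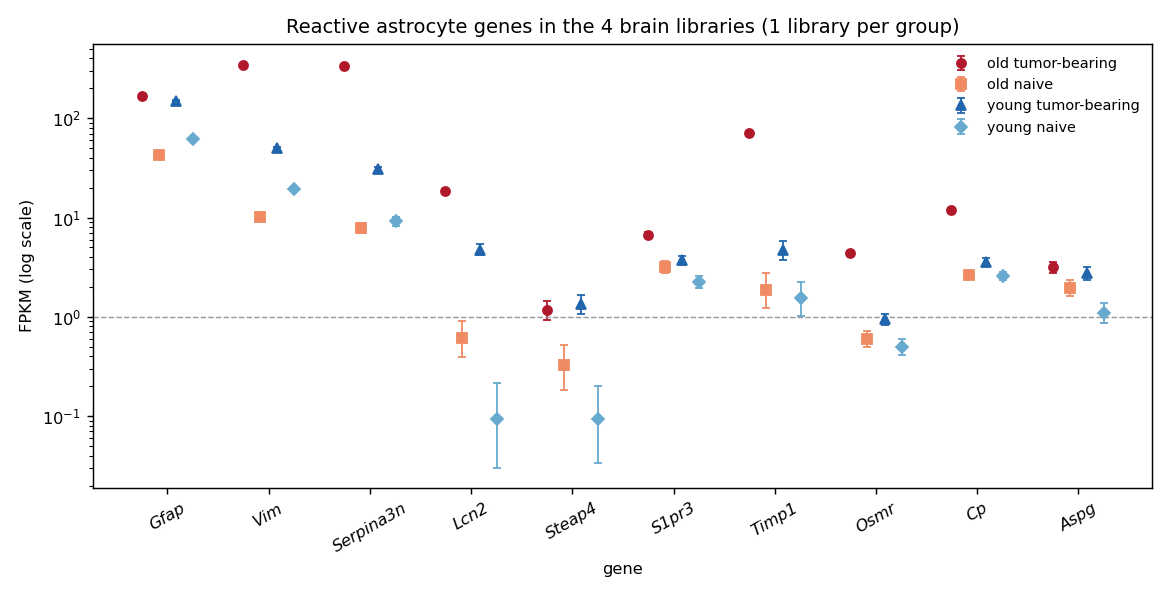
FPKM of the 10 genes (log axis) in the 4 libraries, with exact 95% Poisson intervals of the reads; the dashed line marks 1 FPKM. The old tumor-bearing point is the highest for every gene except Steap4, where it stands at 1.17 FPKM beside 1.35 FPKM in the young tumor-bearing library.

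Gfap, the intermediate filament protein of astrocytes (ENSMUSG00000020932, mm10 chromosome 11, 102887336 to 102900912, minus strand), stood at 167 FPKM in old tumor-bearing and 42.2 FPKM in old naive tissue, 3.96-fold higher (3.80 to 4.12). In young tissue it stood at 149 FPKM in the tumor-bearing and 61.1 FPKM in the naive library, 2.43-fold higher (2.35 to 2.51). Both tumor-bearing libraries thus lay above both naive ones, and the order from the top was old tumor-bearing, young tumor-bearing, young naive and old naive. Vim, the intermediate filament protein of immature and reactive astrocytes and of many mesenchymal cells (ENSMUSG00000026728, chromosome 2, 13573927 to 13582826, plus strand), was at 347 FPKM in old tumor-bearing and 10.1 FPKM in old naive tissue, 34.4-fold higher (32.0 to 37.0). Vim was at 49.6 FPKM in young tumor-bearing and 19.6 FPKM in young naive tissue, 2.53-fold higher (2.40 to 2.67). The 2 genes were thus alike in young tissue and far apart in old tissue. Within each library, where no scaling enters, the level of Vim was 2.08 times that of Gfap (2.04 to 2.11) in old tumor-bearing and 0.239 times in old naive tissue (0.220 to 0.259). In young tissue it was 0.334 times (0.323 to 0.345) in the tumor-bearing and 0.321 times (0.304 to 0.338) in the naive library, and these intervals overlapped.

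Among secreted inhibitors of proteases, Serpina3n, a serine protease inhibitor (ENSMUSG00000021091, chromosome 12, 104406729 to 104414329, plus strand), was at 339 FPKM in old tumor-bearing and 7.87 FPKM in old naive tissue, 43.1-fold higher (38.0 to 48.9). In young tissue it was at 30.7 FPKM with the tumor and 9.17 FPKM without, 3.35-fold higher (2.99 to 3.77). Timp1, an inhibitor of matrix metalloproteases (ENSMUSG00000001131, chromosome X, 20870166 to 20874735, plus strand), was at 70.8 FPKM from 1461 reads in old tumor-bearing and 1.87 FPKM from 26 reads in old naive tissue, 37.8-fold higher (25.7 to 58.1). The young libraries held 83 reads (4.67 FPKM) of Timp1 with the tumor and 28 reads (1.54 FPKM) without, 3.03-fold higher (1.95 to 4.83). Timp1 lies inside Syn1, a neuronal gene on the opposite strand, and shares 0 exon bases with it. Syn1 ran the other way, with 3044 reads in old tumor-bearing against 15537 in old naive tissue. For both inhibitors the old tumor-bearing library stood alone at the top, and the interval of the old over young naive ratio included 1.

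Lcn2, a secreted lipocalin that binds bacterial iron carriers (ENSMUSG00000026822, chromosome 2, 32384633 to 32388252, minus strand), had the highest fold of the 10 in young tissue. It held 1130 reads (18.5 FPKM) in old tumor-bearing and 25 reads (0.609 FPKM) in old naive tissue, 30.4-fold higher (20.5 to 47.2). In young tissue 248 reads (4.73 FPKM) with the tumor stood against 5 reads (0.0932 FPKM) without, 50.7-fold higher (21.4 to 158). The intervals of the old and young folds overlapped, and the fold in old tissue was 0.60 times that in young tissue (0.227 to 1.58). Lcn2 is also a granule gene of neutrophils. The 9 neutrophil markers summed to 3.98 FPKM in old tumor-bearing against 10.9 FPKM in old naive tissue, and to 2.68 FPKM in young tumor-bearing against 3.33 FPKM in young naive tissue. At both ages the tumor-bearing library was thus lower in these sums and higher in Lcn2. Between ages the sums and Lcn2 were both higher in the old library, with and without the tumor. Few of the 9 markers reached the floor. In the old tumor comparison 3 did and 2 were 2-fold lower, beside 31.4% of all genes. In the young one 1 did, at -0.75 (log2). Between tumor-bearing libraries 2 did and 0 were 2-fold apart. The part of neutrophils in Lcn2 was not tested. Mpo, Elane and Ly6g had 0 reads in the old tumor-bearing library, Ly6g also in the old naive and young tumor-bearing ones, and Mpo and Elane also in the young naive one.

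Of the genes for metal handling and metabolism, Cp encodes ceruloplasmin, the copper enzyme that oxidizes iron for export (ENSMUSG00000003617, chromosome 3, 19957054 to 20009145, plus strand). It was at 12.0 FPKM in old tumor-bearing and 2.63 FPKM in old naive tissue, 4.56-fold higher (4.10 to 5.08). In young tissue it was at 3.60 FPKM with the tumor and 2.58 FPKM without, 1.40-fold higher (1.24 to 1.57), the smallest young fold of the 10. Cp shares 108 exon bases with Hps3 on the opposite strand, and reads there could not be told apart. Steap4, a membrane enzyme that reduces iron and copper (ENSMUSG00000012428, chromosome 5, 7960457 to 7982213, plus strand), had few reads. There were 86 (1.17 FPKM) in old tumor-bearing and 16 (0.324 FPKM) in old naive tissue, 3.62-fold higher (2.11 to 6.61). Young tissue held 85 (1.35 FPKM) with the tumor and 6 (0.0930 FPKM) without, 14.5-fold higher (6.39 to 40.6). Aspg, an asparaginase (ENSMUSG00000037686, chromosome 12, 112106679 to 112127559, plus strand), was at 3.15 FPKM in old tumor-bearing and 2.0 FPKM in old naive tissue, 1.61-fold higher (1.28 to 2.03). With 2.74 FPKM in young tumor-bearing and 1.10 FPKM in young naive tissue it was 2.50-fold higher (1.91 to 3.29). Aspg was the 1 member below 2-fold in old tissue. Its log2 ratio there was 0.66 as deposited and 1.0 to 1.21 under the other scalings.

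Osmr, the receptor chain that pairs with gp130 to bind oncostatin M (ENSMUSG00000022146, chromosome 15, 6813577 to 6874969, minus strand), was at 4.35 FPKM in old tumor-bearing and 0.602 FPKM in old naive tissue, 7.23-fold higher (5.96 to 8.84). It stayed below the floor in young tissue, at 0.949 FPKM with the tumor and 0.497 FPKM without, 1.91-fold higher (1.53 to 2.40). S1pr3, a receptor for sphingosine 1-phosphate (ENSMUSG00000067586, chromosome 13, 51408639 to 51422797, plus strand), was at 6.65 FPKM in old tumor-bearing and 3.18 FPKM in old naive tissue, 2.09-fold higher (1.80 to 2.44). Young tissue held 3.71 FPKM with the tumor and 2.26 FPKM without, 1.64-fold higher (1.38 to 2.0). The receptors thus kept to smaller folds than the filaments and inhibitors in young tissue, as a description of these libraries.

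**Figure D2:**
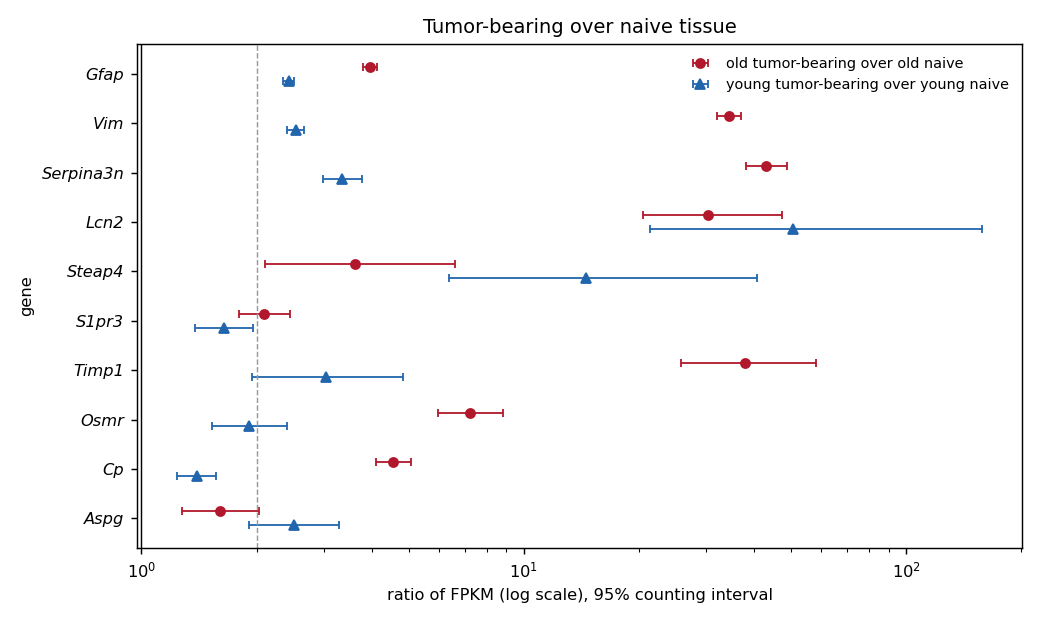
Ratio of FPKM of tumor-bearing over naive tissue (log axis) for each gene in old and in young mice, with exact 95% counting intervals; the dashed line marks 2-fold. Vim, Serpina3n and Timp1 lie between 34.4 and 43.1 in old tissue and between 2.53 and 3.35 in young tissue, while Lcn2, Steap4 and Aspg have the higher point in young tissue.

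The difference between the tumor effects at the 2 ages was then taken as the old fold divided by the young fold, with normal-approximation intervals of the reads. Serpina3n, Vim and Timp1 formed one group, at 12.8 (10.9 to 15.2), 13.6 (12.4 to 14.9) and 12.5 (7.0 to 22.2). Osmr at 3.78 (2.83 to 5.06) and Cp at 3.26 (2.79 to 3.82) followed, then Gfap at 1.63 (1.55 to 1.72) and S1pr3 at 1.27 (1.01 to 1.60). Steap4 went the other way at 0.250 (0.0933 to 0.669), as did Aspg at 0.644 (0.456 to 0.909). These values and intervals hold for the FPKM as deposited, and the other scalings raised the old folds more than the young ones. For Aspg the log2 ratios were 0.66 in old and 1.25 in young tissue as deposited. Scaled by fragments in genes they were 1.21 in old and 1.30 in young tissue. The lower old fold of Aspg thus depended in size on the scaling, and is not counted as beyond counting error. For Steap4, with 6 reads in young naive tissue, the log2 ratios were 1.58 in old and 2.91 in young tissue as deposited. Scaled by fragments in genes they were 2.08 in old and 2.92 in young tissue, and with 1 FPKM added 0.71 and 1.10. The size of its difference thus also depended on the setting. As deposited, on the log2 scale of FPKM + 0.1, the difference between the tumor effects was at least 1 in 5 members, against 19.3% of 17441 genes. It was at most -1 in 1 member, against 32.0% (18.1% and 28.9% of protein-coding genes). These ratios rest on 4 libraries, and the spread between mice is not in them.

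The make-up of the combined signal also differed. The 10 genes summed to 969 FPKM in old tumor-bearing and 71.3 FPKM in old naive tissue, and to 251 FPKM in young tumor-bearing and 98.1 FPKM in young naive tissue. Gfap made up 17.2% of the sum in old tumor-bearing and 59.2% in old naive tissue. It made up 59.3% in young tumor-bearing and 62.3% in young naive tissue. In old tumor-bearing tissue Vim held 35.8%, Serpina3n 34.9% and Timp1 7.30%, against 14.1%, 11% and 2.62% in old naive tissue. The old tumor-bearing library was thus led by Vim and Serpina3n, and the other 3 libraries by Gfap. Small members also differed in share: Lcn2 made up 1.89% in young tumor-bearing and 0.0951% in young naive tissue.

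**Figure D3:**
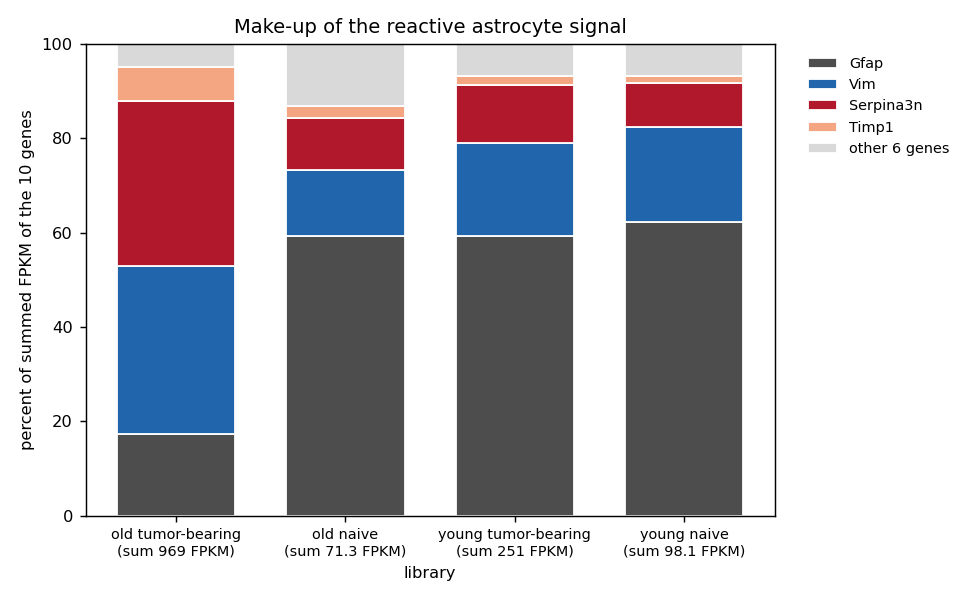
Percent of the summed FPKM of the 10 genes taken by Gfap, Vim, Serpina3n, Timp1 and the other 6 genes in each library. Gfap takes 59.2% to 62.3% in 3 libraries and 17.2% in the old tumor-bearing one.

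Old and young tissue were also compared directly. These comparisons use the same 4 libraries as those above, so they are not separate evidence. Between naive libraries, 7 members reached the floor and 0 were 2-fold apart, where 6.71% of 15419 genes were higher and 4.93% lower (3.23% and 3.07% of protein-coding genes). Under 3 of the 4 other scalings 1 member, Vim, was 2-fold lower, at -1.08 to -1.18 on the log2 scale against -0.95 as deposited. The share of 2-fold genes that were higher was 57.7% as deposited and 41.1% with equal FPKM totals. Gfap was at 42.2 FPKM in old naive and 61.1 FPKM in young naive tissue, 1.45-fold lower (1.38 to 1.52), and Vim at 10.1 FPKM in old naive and 19.6 FPKM in young naive tissue, 1.95-fold lower (1.79 to 2.12). Aspg was 1.79-fold higher (1.32 to 2.42) and S1pr3 1.41-fold higher (1.16 to 1.71) in old naive tissue. Lcn2 and Steap4 were below the floor in both. Lcn2 had 25 reads in old naive against 5 in young naive tissue (6.53-fold, 2.46 to 21.9). All 3 neutrophil markers at the floor, Ngp, S100a8 and S100a9, were also at least 2-fold higher in old naive tissue (median log2 ratio 2.07), and their part in Lcn2 was not tested. Steap4 had 16 in old naive against 6 in young naive tissue (3.48-fold, 1.30 to 10.9). The intervals of Serpina3n, Timp1, Osmr and Cp included 1, and the sign of Cp changed with the scaling.

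Between tumor-bearing libraries, all 10 members reached the floor and 6 were at least 2-fold higher in old tissue, against 19.0% of 16562 genes, and 0 were lower, against 29.8% (17.5% and 27.9% of protein-coding genes). The higher share of 2-fold genes was 39.0% as deposited and up to 54.5% under the other scalings. Timp1 was 15.1-fold higher (12.1 to 19.1), Serpina3n 11-fold (10.4 to 11.7), Vim 7.0-fold (6.79 to 7.21), Osmr 4.58-fold (3.98 to 5.30), Lcn2 3.92-fold (3.41 to 4.51) and Cp 3.33-fold (3.07 to 3.63). Gfap was at 167 FPKM in old and 149 FPKM in young tumor-bearing tissue, 1.12-fold higher (1.10 to 1.15), or 0.32 to 0.55 on the log2 scale under the other scalings. Steap4 and Aspg did not differ beyond counting error, at 0.870-fold (0.637 to 1.19) and 1.15-fold (0.95 to 1.39), and the sign of Steap4 changed with the scaling.

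**Figure D4:**
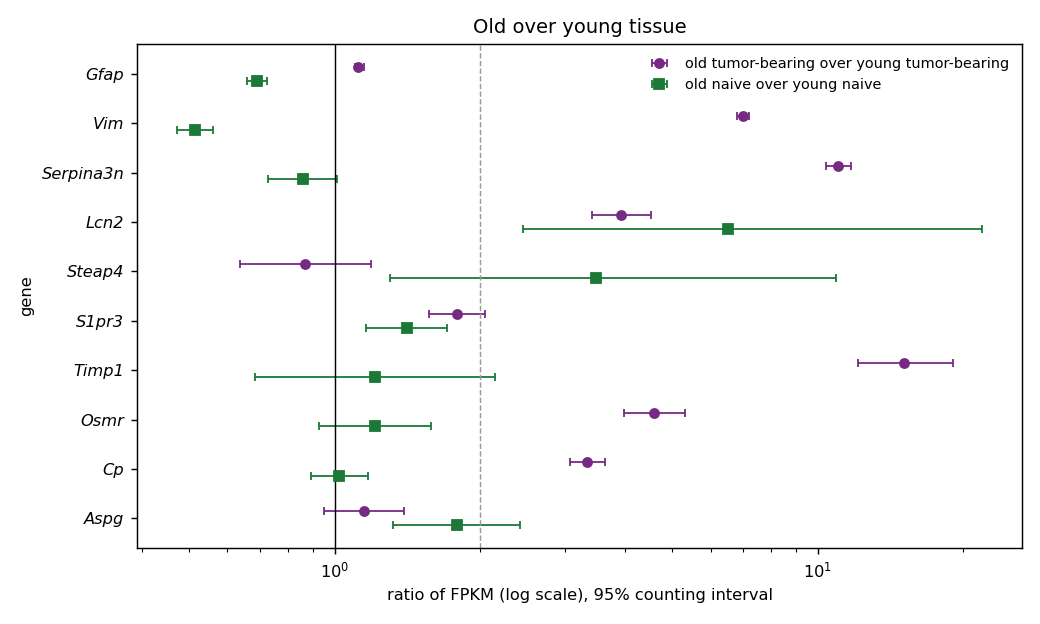
Ratio of FPKM of old over young tissue (log axis) for each gene, in tumor-bearing and in naive mice, with exact 95% counting intervals; the solid line marks 1 and the dashed line 2-fold. Gfap and Vim lie at 0.690 and 0.514 in naive tissue and at 1.12 and 7.0 in tumor-bearing tissue.

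Genes of astrocyte identity, 12 transporters, channels, enzymes and regulators that astrocytes express in the healthy brain, were set beside the reactive genes. In young tissue none of the 12 was 2-fold apart and their median log2 ratio of tumor-bearing over naive was 0.00. Few genes were 2-fold apart there at all, 5.05% higher and 1.85% lower. In old tissue 8 were at least 2-fold lower and 0 higher (median -1.38), where 20.6% of all genes were higher and 31.4% lower. Under the other scalings 4 to 6 were lower (median -0.80 to -1.02), where 20.4% to 24.3% of all genes were. Slc1a2, the main glutamate transporter, was at 51.2 FPKM in old tumor-bearing and 255 FPKM in old naive tissue, 4.98-fold lower (4.89 to 5.07). Aqp4, the water channel of astrocyte endfeet, was at 18.1 FPKM in old tumor-bearing and 20.0 FPKM in old naive tissue, 1.11-fold lower (1.04 to 1.17) as deposited. The other scalings moved the old ratios up by 0.35 to 0.58 (log2), which is more than this difference. The direction of Aqp4 thus changed with the scaling. Set against the median of the identity genes, the median of the 10 reactive genes stood 3.78 higher on the log2 scale in old tissue and 1.31 higher in young tissue. By this measure, from which a scaling factor largely cancels, Serpina3n was 6.79, Vim 6.47, Gfap 3.36 and Aspg 2.03 higher in old tissue. Within libraries, the level of Gfap was 2.07 times that of Aldoc, a glycolytic enzyme of astrocytes, in old tumor-bearing and 0.143 times in old naive tissue, and 0.432 times in young tumor-bearing and 0.163 times in young naive tissue. With the tumor the ratio was higher at both ages.

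**Figure D5:**
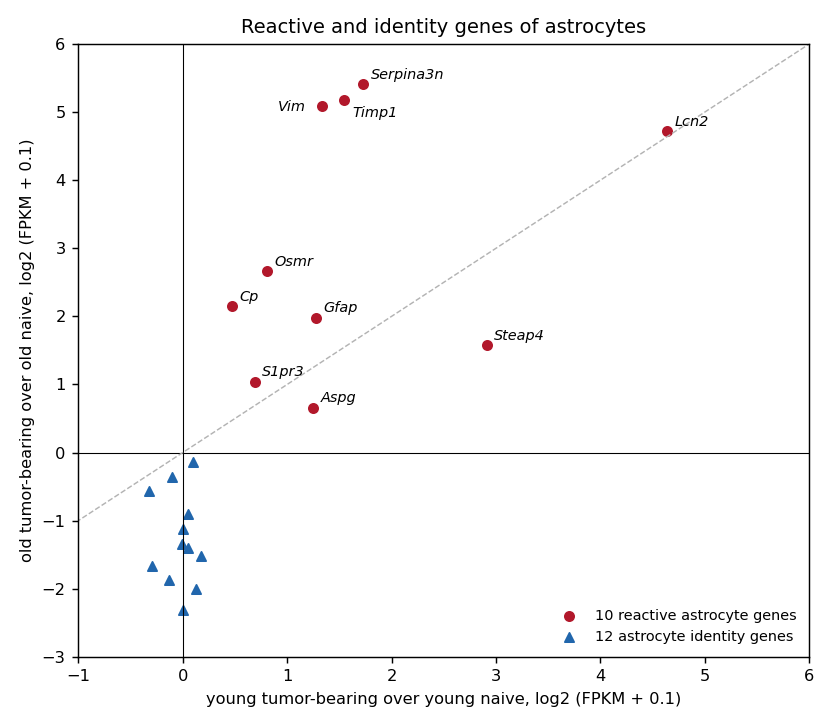
Log2 ratio (FPKM + 0.1) of tumor-bearing over naive tissue in young (x axis) and old mice (y axis) for the 10 reactive and the 12 identity genes of astrocytes; the dashed line marks equal ratios. All reactive genes lie above 0 on both axes, and the identity genes lie near 0 on the x axis and below 0 on the y axis.

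The cytokine pathway upstream of Osmr was examined through gene lists, which were chosen with earlier results of these data known. In old tissue 6 of 8 gp130 ligand genes reached the floor and 5 were at least 2-fold higher, 0 lower. Of all genes, 20.6% were higher and 31.4% lower there. Osm, the ligand of the Osmr receptor, had 118 reads in old tumor-bearing and 3 in old naive tissue (26.5-fold, 8.84 to 130.2), and Lif 222 in old tumor-bearing and 28 in old naive tissue (5.33-fold, 3.59 to 8.21). Il11 had 71 in old tumor-bearing and 4 in old naive tissue (11.6-fold, 4.46 to 45.0). Between the naive libraries 2 of the 8 ligand genes reached the floor. Most of the 6 thus passed it only through the old tumor-bearing library, so the floor itself favored a count of higher genes. In young tissue 3 ligand genes reached the floor and 1 was higher, beside 5.05% of all genes. It was Clcf1, with 85 reads in the tumor-bearing against 24 in the naive library (3.69-fold, 2.28 to 5.96). Osm had 4 reads in the young tumor-bearing and 5 in the young naive library. Of the 5 other receptor chains, 4 reached the floor in either comparison, 0 were at least 2-fold higher and 1 was lower, Cntfr in old tissue. The shares of all genes were 20.6% higher and 31.4% lower in old, and 5.05% and 1.85% in young tissue. Il6st, which encodes gp130, was at 11.6 FPKM in old tumor-bearing and 10.4 FPKM in old naive tissue, 1.12-fold higher (1.05 to 1.18), and Il6ra, the interleukin 6 receptor, was 1.36-fold higher (1.12 to 1.64). Osmr amounted to 0.376 times the level of Il6st (0.352 to 0.402) in old tumor-bearing and 0.0581 times in old naive tissue (0.0476 to 0.0702).

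Of 10 genes of JAK-STAT3 signaling and its responders, 5 were at least 2-fold higher in old tissue, beside 20.6% of all genes. In young tissue 3 were, beside 5.05% of all genes. The count of lower genes was 0 at both ages, where 31.4% of all genes were lower in old and 1.85% in young tissue. Bcl3, a nuclear regulator of NF-kB, was 17.4-fold higher (11.7 to 26.8) in old and 6.77-fold (3.20 to 16.5) in young tissue. Stat3 was at 29.5 FPKM in old tumor-bearing and 7.37 FPKM in old naive tissue, 4.0-fold higher (3.75 to 4.27), and 1.37-fold higher (1.27 to 1.47) in young tissue. Socs3, the feedback inhibitor of gp130 signaling, was 13.3-fold higher (10.9 to 16.4) in old and 2.92-fold higher (2.21 to 3.90) in young tissue. Socs1, a feedback inhibitor of interferon signaling, was 40.8-fold higher (25.4 to 70.4) in old and 5.72-fold (3.61 to 9.45) in young tissue. Cebpd, a C/EBP factor induced by STAT3, was 6.09-fold higher (4.94 to 7.57) in old and 1.72-fold higher (1.36 to 2.18) in young tissue.

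Partners of the other members were also listed. Of the 11 other genes of the sphingosine 1-phosphate system, 9 reached the floor in old tissue, where 1 was higher and 4 were lower beside 20.6% and 31.4% of all genes. The counts were 2 higher and 2 or 3 lower under the other scalings. None was 2-fold apart in young tissue, where 5.05% of all genes were higher and 1.85% lower. S1pr2 was 23.7-fold higher (18.3 to 31.2) in old tissue, at 11.2 FPKM with the tumor and 0.473 FPKM without, while S1pr1, the main receptor of this family in astrocytes and endothelium, was 4.16-fold lower (3.87 to 4.49). Of the other 3 TIMP genes, 0 were higher and 1 was lower in old tissue, beside 20.6% and 31.4% of all genes. In young tissue none of these was 2-fold apart, beside the same 5.05% and 1.85% of all genes. Timp2 was at 48.8 FPKM in old tumor-bearing and 92.9 FPKM in old naive tissue. Of 12 genes of iron and copper handling, 10 reached the floor in old tissue. As deposited 5 were higher and 1 was lower, beside 20.6% and 31.4% of all genes, and 0 were lower under the other scalings. Steap1, a relative of Steap4, had 169 reads in old tumor-bearing and 0 in old naive tissue, at least 37.9-fold higher from 3 reads. Hmox1, which releases iron from heme, was 7.76-fold higher (6.03 to 10.1), and Slc40a1, the iron exporter, 2.65-fold lower (2.09 to 3.38). In young tissue 0 of 11 were 2-fold apart, where 5.05% of all genes were higher and 1.85% lower. Of the Lcn2 receptor genes, Slc22a17 was 3.67-fold lower (3.55 to 3.80) in old tissue and Lrp2 stayed below the floor.

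The other pan-reactive genes and the lists for single kinds of injury were read last. Of the 3 pan-reactive genes outside the 10, Cd44, a hyaluronan receptor, was 43.2-fold higher (33.6 to 56.4) in old and 2.54-fold (2.06 to 3.16) in young tissue. Cxcl10, an interferon-induced chemokine, was at 237 FPKM in old tumor-bearing and 0.114 FPKM (4 reads) in old naive tissue. Hspb1, a small heat shock protein, was at 7.57 FPKM in young tumor-bearing and 23.4 FPKM in young naive tissue, 3.10-fold lower (2.58 to 3.73), and at 6.84 FPKM in old tumor-bearing and 6.94 FPKM in old naive tissue. Of all genes, 20.6% were higher and 31.4% lower in old tissue, and 5.05% and 1.85% in young tissue. On the neuroinflammatory list of 12 genes, 8 were higher and 0 lower in old tissue (11 at the floor, median 3.25). In young tissue 7 were higher and 0 lower (11 at the floor, median 1.19). Gbp2, Iigp1 and Psmb8, genes of the interferon response, led it. On the ischemic list of 12, 9 were higher and 2 lower in old tissue (11 at the floor, median 2.92). Under the other scalings 9 stayed higher, and 0 or 1 was lower. Between the naive libraries 6 of the 12 reached the floor, so several passed it only through the old tumor-bearing library. In young tissue 3 were higher and 0 lower (9 at the floor, median 0.08). Emp1, a membrane protein of that list, was 29.1-fold higher (21.2 to 41.1) in old and 1.59-fold (1.20 to 2.11) in young tissue.

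The members differed in shape over the 4 libraries. By Euclidean distance of centred log2 (FPKM + 0.1), Serpina3n and Timp1 were each other's nearest member (0.51), as were Osmr and Cp (0.53) and S1pr3 and Aspg (0.50). Lcn2 lay farthest from any other (2.13 from Serpina3n). It had 5 reads (0.0932 FPKM) in young naive tissue, near the constant added. Its young log2 ratio was 4.64 with 0.1 FPKM added, 2.39 with 1 FPKM and 5.52 with 0.01 FPKM, so its distance depends on that constant. Among 13882 protein-coding genes, those near the median profile of the 10 included Lpxn (0.17), Fyb (0.20), Ciita (0.21) and Slc26a2 (0.23). Lpxn was at 5.29 FPKM in old tumor-bearing and 0.725 FPKM in old naive tissue, and at 1.46 FPKM in young tumor-bearing and 0.613 FPKM in young naive tissue. Nearest to Gfap were Jchain (0.31), Gm10130 (0.34) and Serping1 (0.41). With 4 libraries such likeness is a description.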

How the data were processed

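Poly-A RNA of 4 mouse brain samples was sequenced as paired-end libraries. The group tag in the labels set the groups, although a GL261 tag stands on the naive samples as well. Per the labels' protocols, a stranded and an unstranded preparation are both described, so reads of overlapping genes on opposite strands could not be told apart. The authors deposited 1 FPKM value per gene and library, as named in the file headers. HISAT2 and the mm10 assembly are named in the submitters' processing notes, per the labels. The counter, the annotation and what the FPKM divisor counts are not given in the sources used here.

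Symbols (54409 of 54532 genes), coordinates and exon lengths came from GENCODE M21. FPKM times summed exon length came in whole steps, which gave the reads. Of 32801 genes above 0, 31883 (97.2%) came out whole in all 4 libraries, within 0.03 reads or 2e-05 of the value, the 10 members among them. Read recovery and interval coverage were tested on simulated data. Ratios were computed in Python 3.11.15 with scipy 1.17.1, as log2 of FPKM + 0.1, with a floor of 1 FPKM. Intervals of ratios were exact conditional binomial ones. They hold counting error alone, and without molecular identifiers PCR copies count as separate reads. For a gene of 1 kb, 3 reads, the limit that a count of 0 allows, stand for 0.129 FPKM in the old tumor-bearing, 0.192 in the old naive, 0.150 in the young tumor-bearing and 0.147 in the young naive library.

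The members, gene lists and motifs were chosen with earlier results of these data known. Genes named were the 10 members, genes of each list (by rule up to 4 with the largest ratios, not all of which are printed), partners of the members, and the genes nearest in profile, of which 1 is not reported here. Others lower in rank, such as Aqp4, Stat3, Cebpd, Lif and Hmox1, were chosen for their known roles after their values were seen. Medians over the 10 members include those below the floor, while list medians do not. Alternatives covered the scaling, the added constant, the floor and the fold. One list entry, the transferrin gene, was respelled to the symbol of the annotation after the files were read.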

Additional observations from a re-analysis of the deposited data

Results flagged for a closer look

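For 2 members the direction of the age difference was opposite in tumor-bearing and naive tissue, with each counting interval clear of 1. Gfap was 1.12-fold higher in old than in young tumor-bearing tissue (1.10 to 1.15) and 1.45-fold lower in old than in young naive tissue (1.38 to 1.52), and the ratio of these folds was 1.63. Vim was 7.0-fold higher in old than in young tumor-bearing tissue (6.79 to 7.21) and 1.95-fold lower in old than in young naive tissue (1.79 to 2.12), and the ratio of the folds was 13.6. The difference was not tested, since each group was 1 library.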

How the results depend on the processing

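With 1 library per group no result has a replicate check, leaving out a library was not possible, and the counting intervals do not hold the spread between mice. No paired analysis was possible because each group held 1 library. In both tumor comparisons the direction of all 10 members held under each of the 6 scaling and added-constant settings. Over single members and comparisons, 163 of 240 repeated values stayed within the counting interval, 77 moved beyond it and 0 of those at least 2-fold apart changed sign. The median log2 ratio of the members in old tumor-bearing over old naive tissue was 2.41 as deposited, 2.96 scaled by fragments in genes, 2.75 with median-of-ratios scaling, 2.81 with equal FPKM totals, 2.87 scaled by fragments without mitochondrial and the 50 highest genes, and 1.90 with 1 FPKM added. In old over young tumor-bearing tissue it was 1.83 as deposited, 2.21 scaled by fragments in genes, 2.14 with median-of-ratios scaling and also without mitochondrial and the 50 highest genes, and 1.48 with 1 FPKM added. The median age by tumor difference was 1.19 as deposited, 1.71 scaled by fragments in genes and 1.63 without mitochondrial and the 50 highest genes. These shifts follow from the factor of each scaling and from the constant added. In young tissue 3 members were at least 2-fold higher with a floor of 5 FPKM, against 7, since fewer members reach that level. In old over young naive tissue 2 members were higher with no floor, Lcn2 and Steap4, and 1, Aspg, at 1.5-fold, against 0, while 1, Vim, was 2-fold lower under 3 of 4 scalings, against 0. Counts of the other gene lists under these scalings were added after the values were seen.

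Among protein-coding genes alone, a restriction added after the values were seen, 19.3% were at least 2-fold higher in old tumor-bearing over old naive tissue and 2.32% in young tumor-bearing over young naive tissue.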

Other observations

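Other intermediate filament genes did not follow Gfap and Vim as a group. Of 10 listed, 9 reached the floor in old tissue. There the tumor-bearing library was 2-fold or more higher for 3 and lower for 4, beside 20.6% and 31.4% of all genes. In young tissue none of the 10 was 2-fold apart as deposited, where 5.05% of all genes were higher and 1.85% lower. Lmnb1, which encodes a nuclear lamin, was at 58.9 FPKM in old tumor-bearing and 3.39 FPKM in old naive tissue, 17.4-fold higher (14.8 to 20.5). Nes, which encodes nestin of neural progenitors and reactive astrocytes, was at 22.0 FPKM in old tumor-bearing and 3.58 FPKM in old naive tissue, 6.14-fold higher (5.50 to 6.87), and 1.28-fold higher (1.09 to 1.51) in young tissue. Prph, which encodes peripherin of peripheral neurons, was at 117 FPKM in old tumor-bearing and 0.575 FPKM in old naive tissue, 203-fold higher (128 to 342). The neuronal Nefl was 5.70-fold lower (5.38 to 6.04).

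Serpina3n belongs to a cluster of related genes on chromosome 12. Of 10 other cluster genes, Serpina3f and Serpina3g reached the floor in old tissue. Serpina3g was at 10.4 FPKM in old tumor-bearing and 0.243 FPKM in old naive tissue, 42.6-fold higher (21.5 to 99.3), and 5.27-fold higher (2.88 to 10.4) in young tissue. Serpina3f was 71.5-fold higher (24.3 to 349) in old tissue and had 36 reads in young tumor-bearing and 0 in young naive tissue, at least 12.3-fold higher from 3 reads. The genes are close copies, so reads can be split between them, and the 10 others together summed to 17.9 FPKM in old tumor-bearing tissue beside 339 FPKM of Serpina3n. Of 13 secreted and scar genes of astrocytes, 4 stood 2-fold or more above and 6 below the naive level in old tissue (median 0.26). The shares of all genes were 20.6% and 31.4%. In young tissue the counts were 1 and 0 (median 0.09), beside 5.05% and 1.85% of all genes. Thbs1, a thrombospondin, was 8.20-fold higher (6.55 to 10.4) in old and 3.22-fold (2.31 to 4.55) in young tissue, while Ncan, a brain proteoglycan, was 6.24-fold lower (5.86 to 6.66) in old tissue and 1.07-fold higher (1.02 to 1.12) in young tissue.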
